A study of Mus musculus with 10 samples.

Results

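ABC and OATP transporters carry drugs, bile salts, sterols and conjugated metabolites across the membranes of liver cells, and 38 of their genes, of 22180 genes with a value, are described here in mouse liver. They were taken by symbol, as every gene of the ABCB, ABCC, ABCG and SLCO families except the bile salt pump gene Abcb11 and Slco1a1. Each gene is represented by its transcript cluster, a group of array probes for one transcript region, with the highest mean among those annotated with a single symbol. Levels are the deposited log2 values, so a difference of 1 is a doubling. Of the 38 genes, 24 passed a filter on mean level at the 40th percentile of all genes (log2 3.98) and were tested.

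The livers came from male mice aged 4 weeks, 1 array per sample, and all 10 samples carried Rosa26-rtTA, the doxycycline-dependent activator placed in the broadly active Rosa26 locus. In 3 of them rtTA was combined with SOD2 shRNA 1 and in 3 with SOD2 shRNA 2, hairpin RNAs against the mitochondrial superoxide dismutase, and the other 4 had rtTA alone. Pregnant dams ate doxycycline chow at 625 mg/kg so that SOD2 was knocked down from embryonic day 0 to 12.5. The study calls the 6 hairpin livers adapted; its question was what differs in them long after the knockdown. The controls were mostly from one cohort: 3 were littermates of shRNA 2 mice and 1 of shRNA 1 mice. Which control is which is not labelled, so hairpin and cohort cannot be told apart. The number of founders behind each hairpin line is not stated in the labels. Samples are numbered within a group and carry no animal identifier, and p-values therefore reflect only how far these samples spread.

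ABC transporters use ATP to move substrates out of the cytosol. In hepatocytes some of them sit on the canalicular side, where they load bile, and others on the sinusoidal side, where they return conjugates to blood. OATPs, encoded by Slco genes, work without ATP and mostly take organic anions up from the sinusoid. Several members are textbook targets of the sensors CAR, PXR, NRF2 and LXR, which respond to foreign compounds, electrophiles and sterols, and some differ between male and female liver.

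The median log2 value of an array was 4.06 to 4.17, and correlations between arrays were 0.981 to 0.992 across genes. Sod2 itself was at 10.33 to 10.49 in controls and 10.24 to 10.47 in hairpin livers (adapted minus control -0.01, limma adjusted p = 0.980). All 7 hepatocyte markers examined passed the level filter, as did 6 of 6 markers each of sinusoidal endothelium, macrophages and stellate cells. Of cholangiocyte markers 3 of the 5 measured passed, and of neutrophil markers 0 of 4. Arrays of the same group differed in sex-biased genes. The mean of 16 male-biased genes, relative to the control mean, was -1.43 in shRNA 2 replicate 3. It was -0.01 and -0.17 in the other shRNA 2 livers. In control replicate 4 it was -0.39, against -0.02 to 0.27 in the other controls. The shRNA 1 livers were at -0.69, -0.56 and -0.55, below all controls. All 16 genes had a lower mean in adapted livers, with a median difference of -0.58 (0.0058 over all genes) and 0 adjusted calls.

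No transporter passed an adjusted p of 0.05 in any of the 5 comparisons, which were adapted, shRNA 1 and shRNA 2 livers each against control, shRNA 1 against shRNA 2, and an F test across the 3 groups (limma, Benjamini-Hochberg over 13308 genes). The smallest adjusted p of any member was 0.305, for Abcc3 in shRNA 1 livers. The background was as sparse: in the same order 0.00751%, 0%, 0.00751%, 0.015% and 0.00751% of all tested genes passed. At an unadjusted p under 0.05, adapted against control held 5 of the 24 members, where 8.37% of all genes reached that level. Of the 5, 4 had a higher mean, against 4.86% of all genes, and 1 a lower mean, against 3.51%. For shRNA 1 the count was 3 of 24 against 7.89% of all genes, with 2 higher (4.57% of all genes) and 1 lower (3.32%). For shRNA 2 it was 4 of 24 against 7.6%, with 4 higher (4.14%) and 0 lower (3.46%). Between the hairpins it was 3 of 24 against 6.02%, with 1 higher in shRNA 1 (3.32%) and 2 lower (2.7%). The F test held 6 of 24 against 7.84%. The median difference of the 24 members from control was 0.028 in adapted livers, beside 0.0058 over all genes. Of the members 15 had a higher and 9 a lower mean, where 52.0% of all tested genes had a higher mean. The values that follow are descriptions of members whose differences did not pass.

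Adjacent genes Abcg5 and Abcg8 encode the partner subunits of the canalicular sterol exporter and lie head to head on chromosome 17. The bases between their RefSeq start sites are shown first because the values of both genes are set against each other in what follows. The upstream windows of Abcb1a and Slco1a4 are shown because these members had the largest mean differences in adapted livers. RefSeq windows of build GRCm38.p6 were found for 29 of the 38 members. The stretch between Abcg5 and Abcg8 is 109 bases at chr17:84683012-84683120, read on the plus strand, which is that of Abcg8; a further Abcg8 start window in the table is not shown. That of Abcb1a is chr5:8566841-8567090 on the plus strand and that of Slco1a4 is chr6:141856221-141856470 on the minus strand, each the 250 bases before the start. Capitals mark matches, on either strand, to 6 motifs searched: the CCAAT box, the TATA box as TATAAA, the nuclear receptor hexamer AGGTCA, the STAT element TTCNNNGAA, the antioxidant response core TGACNNNGC, and the GATA element AGATAA, which was added after the sequence had been seen.
Abcg5-Abcg8 intergenic: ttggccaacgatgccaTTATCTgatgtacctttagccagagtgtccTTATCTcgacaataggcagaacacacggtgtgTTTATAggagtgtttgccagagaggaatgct
Abcb1a upstream: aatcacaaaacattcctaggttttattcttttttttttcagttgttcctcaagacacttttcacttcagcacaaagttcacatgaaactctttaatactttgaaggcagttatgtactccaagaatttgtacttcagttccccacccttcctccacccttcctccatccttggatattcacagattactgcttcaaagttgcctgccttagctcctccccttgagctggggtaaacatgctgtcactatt
Slco1a4 upstream: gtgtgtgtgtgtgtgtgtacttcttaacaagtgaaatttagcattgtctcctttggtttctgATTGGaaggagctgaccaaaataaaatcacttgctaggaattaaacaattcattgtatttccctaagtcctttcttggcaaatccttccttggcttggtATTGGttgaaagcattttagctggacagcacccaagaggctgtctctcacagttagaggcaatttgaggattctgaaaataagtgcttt

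The stretch shared by Abcg5 and Abcg8 held 2 matches to AGATAA, the core bound by GATA factors, and 1 to TATAAA. Windows of the same length before all RefSeq starts held at least 1 match in 3.98% and 5.9% of cases. The Slco1a4 window held 2 matches to CCAAT, which 33.8% of all 250-base windows hold, and the Abcb1a window held none of the 6. A match is a description of letters, not of a bound site.

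Canalicular exporters held 3 of the 5 members at an unadjusted p under 0.05 in adapted against control, a level that 8.37% of all genes reached. These were Abcb1a and the neighbours Abcg5 and Abcg8, whose values ran together over the arrays and are not separate observations. Of 7 genes in the group 6 were tested, with 3 higher and 3 lower means in adapted livers and a median difference of 0.12. Abcg5 was at 8.87, 8.83, 8.80 and 8.80 in the controls, at 9.01, 8.67 and 8.98 in shRNA 1 livers and at 9.16, 9.15 and 9.46 in shRNA 2 livers. All shRNA 2 livers thus lay above all controls and all shRNA 1 livers, while shRNA 1 replicate 2 was the lowest of the 10 arrays. Abcg8 was at 8.70, 8.51, 8.57 and 8.35 in the controls, at 8.95, 8.27 and 8.87 in shRNA 1 livers and at 8.98, 8.87 and 9.28 in shRNA 2 livers. The same arrays were lowest and highest as for Abcg5, and all shRNA 2 livers were again above all controls.

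For Abcg5 the shRNA 2 minus control difference was 0.43 (standard error 0.11, 95% confidence interval 0.19 to 0.68, limma adjusted p = 0.548) and the shRNA 1 difference 0.06 (interval -0.18 to 0.31). For Abcg8 these were 0.51 (interval 0.15 to 0.87, limma adjusted p = 0.620) and 0.16 (interval -0.20 to 0.52). The hairpins were set against each other directly: shRNA 1 minus shRNA 2 was -0.37 for Abcg5 (limma adjusted p = 0.687) and -0.35 for Abcg8 (limma adjusted p = 0.851), so neither difference between lines passed. Without shRNA 1 replicate 2 the latter was -0.13, and without shRNA 2 replicate 3 it was -0.23. The shRNA 1 minus control differences rested on single arrays too. Without shRNA 1 replicate 2 they were 0.17 for Abcg5 and 0.38 for Abcg8, and without shRNA 1 replicate 1 they were -0.00082 and 0.03. Without shRNA 2 replicate 3 and control replicate 4 together, the shRNA 2 minus control difference of Abcg8 was 0.33. The 9 measured LXR targets outside these families, genes induced by the sterol sensor that also acts on Abcg5 and Abcg8, had a median adapted minus control difference of 0.09, with 7 higher and 2 lower means and 0 adjusted calls. Their median was 0.12 in shRNA 1 livers, or 0.07 without replicate 1 of that group. It was 0.03 in shRNA 2 livers, or 0.17 without replicate 1 of that group. The mean of these LXR targets was highest in shRNA 2 replicate 3, at 0.32, the array that was also highest for both subunits. In shRNA 2 replicates 1 and 2 it was 0.0035 and 0.03, beside -0.01 to 0.02 in controls. In those livers both subunits lay above all controls. The part of the LXR list in the values of the subunits was not tested.

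Abcg5 and Abcg8 were the only adjacent pair in the RefSeq gene order with both members tested. Over the 10 arrays they correlated at Pearson r = 0.937 (permutation p = 1e-05, the smallest that 100000 resamples give) and Spearman rho = 0.952 (permutation p = 0.00012). This was the single relation computed, so adjusted values are the same. It was added after the data had been seen, so its p-values are not those of a planned test and serve as description only. Correlations of other gene pairs are not given for comparison. Without shRNA 2 replicate 3 and shRNA 1 replicate 2, the arrays farthest from the Abcg5 median, r was 0.867. After group means were subtracted r was 0.921, so the relation was also present within groups.

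**Figure D1:**
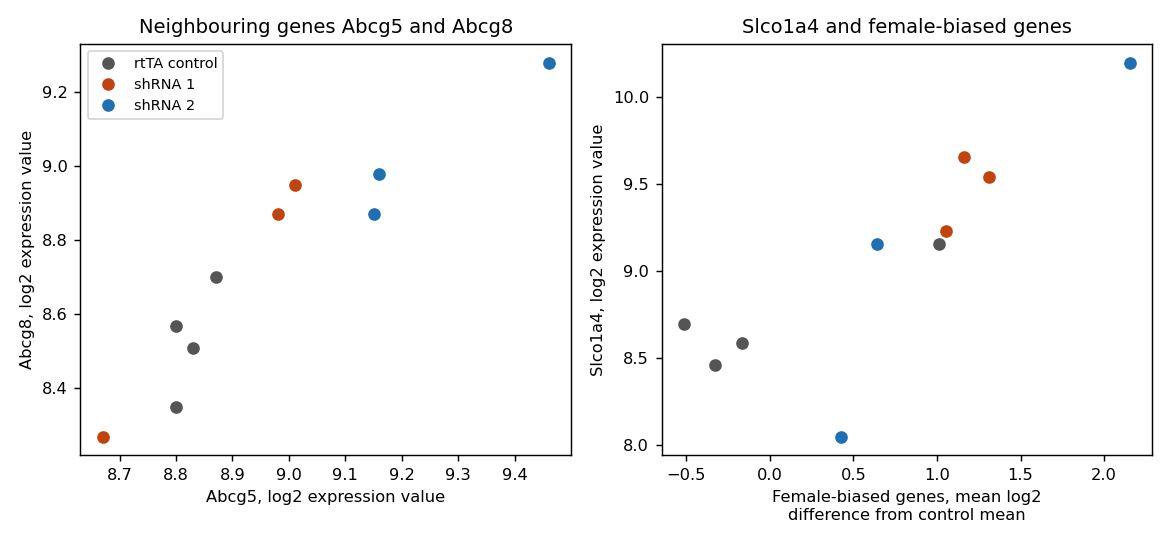
Left, log2 value of Abcg8 against that of Abcg5 in each of the 10 arrays, coloured by group; the points run along a line (r = 0.937), with the shRNA 2 livers above log2 9.1 for Abcg5 and 1 shRNA 1 liver at the lower end. Right, log2 value of Slco1a4 against the mean log2 difference of 9 female-biased genes from the control mean; shRNA 2 replicate 3 is highest on both axes, while shRNA 2 replicate 1 is lowest for Slco1a4 at 8.05 with a list mean of 0.43.

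Abcb1a, one of the mouse P-glycoprotein genes, exports hydrophobic drugs and had the largest mean difference of all 24 members. Its values were 5.47, 4.78, 4.49 and 5.32 in controls, 6.06, 5.57 and 6.10 in shRNA 1 livers and 5.10, 5.72 and 6.59 in shRNA 2 livers. Every hairpin liver but shRNA 2 replicate 1 lay above all controls. Adapted minus control was 0.84 (standard error 0.27, interval 0.26 to 1.43, limma adjusted p = 0.433; exact two-sided permutation p = 0.0333, unadjusted, among 17 members examined in this way). The shRNA 1 difference was 0.90 and the shRNA 2 difference 0.79, or 0.40 without shRNA 2 replicate 3, and the hairpins differed by 0.11 (interval -0.64 to 0.85), with -0.25 to 0.50 when 1 array was left out. The sister gene Abcb1b did not pass the level filter: it lay at 3.53 to 3.70 in controls, 2.85 to 3.31 in shRNA 1 and 3.09 to 3.76 in shRNA 2 livers. Tested without the filter, its adapted minus control difference was -0.35 (limma adjusted p = 0.623), so the sister genes had differences of opposite sign. The genes are close in sequence, and how far their probes cross-react was not tested.

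The remaining canalicular members had intervals that included 0 in adapted against control. Abcc2, the exporter of bilirubin glucuronides, had the smallest spread within groups of all 24 members, an SD of 0.07. It lay at 11.24 to 11.36 in controls, 11.30 to 11.39 in shRNA 1 and 11.18 to 11.38 in shRNA 2 livers, and adapted minus control was -0.0071 (interval -0.17 to 0.15). Abcb4, which moves phosphatidylcholine into bile, lay at 9.75 to 10.19 in controls and 9.89 to 10.22 in adapted livers (difference -0.02, interval -0.25 to 0.21). Abcg2, an exporter of urate, porphyrins and drugs, lay at 7.92 to 8.43 in controls and 8.07 to 8.26 in shRNA 1 livers. In shRNA 2 livers it was at 8.20, 8.49 and 7.35, so that replicate 3 was the lowest and replicate 2 the highest of all arrays. Its adapted minus control difference was -0.10 (interval -0.52 to 0.32), and it turned to 0.06 without shRNA 2 replicate 3 and was -0.22 without shRNA 2 replicate 2. Beside these, the excluded bile salt pump gene Abcb11 lay at 11.14 to 11.34 in controls and 10.96 to 11.42 in adapted livers (difference -0.09, limma adjusted p = 0.830).

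**Figure D2:**
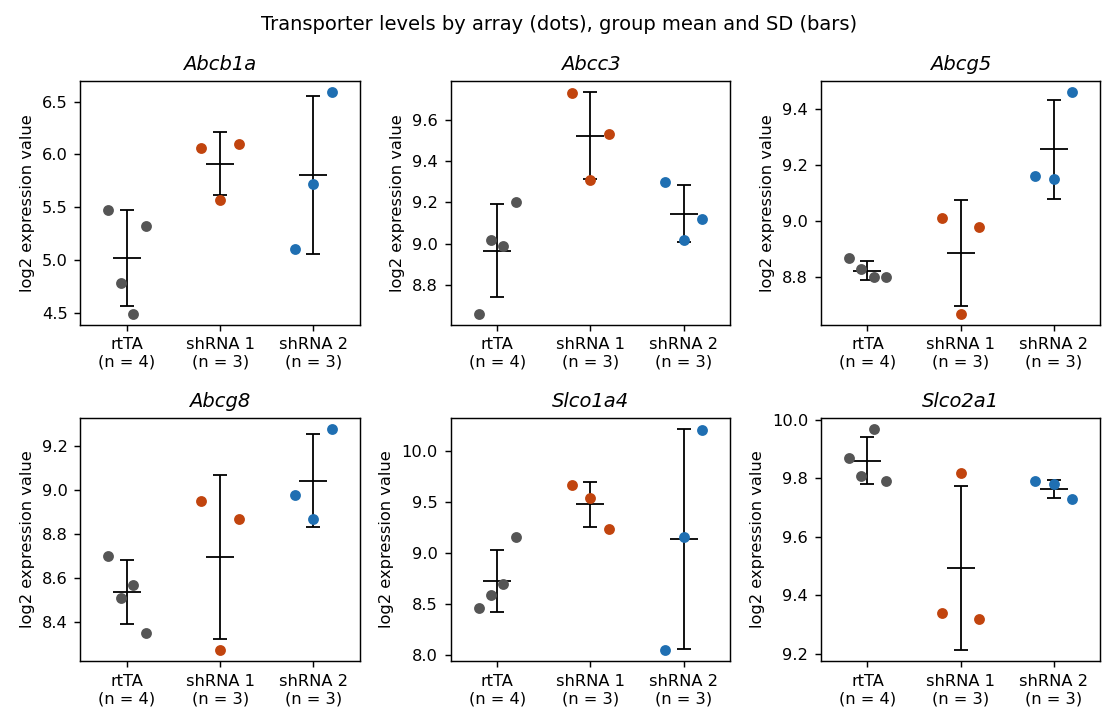
Log2 expression value of 6 transporters in each array (dots), with group mean and SD (bars), for 4 rtTA controls, 3 shRNA 1 and 3 shRNA 2 livers; each panel has its own axis. Abcc3 is above all controls in every shRNA 1 liver and Abcg5 and Abcg8 in every shRNA 2 liver, while Slco1a4 ranges from 8.05 to 10.20 among the shRNA 2 livers.

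Among basolateral exporters, Abcc3 had the smallest p of any member. Abcc3 returns glucuronides and bile salts to blood, and it is a known target of CAR and NRF2. It was at 8.66, 9.02, 8.99 and 9.20 in controls, at 9.73, 9.31 and 9.53 in shRNA 1 livers and at 9.30, 9.02 and 9.12 in shRNA 2 livers. All shRNA 1 livers were above all other arrays, and shRNA 2 livers overlapped the controls. The shRNA 1 minus control difference was 0.56 (standard error 0.14, interval 0.25 to 0.86, limma adjusted p = 0.305). In shRNA 2 livers it was 0.18 (interval -0.13 to 0.49), or 0.08 without control replicate 1 and 0.10 without shRNA 2 replicate 1. The hairpins differed by 0.38 (interval 0.05 to 0.70, limma adjusted p = 0.784). Adapted minus control was 0.37 (limma adjusted p = 0.433; exact permutation p = 0.0476, unadjusted). The remaining members at an unadjusted limma p under 0.05 in adapted livers did not reach that level by permutation. Their exact permutation p, unadjusted, was 0.0905 for Abcg5, 0.1 for Abcg8 and 0.11 for Slco2a1.

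Target genes of the same sensors were read from lists that hold no member. The mean of 15 NRF2 targets, relative to controls, was 0.26, 0.40 and 0.44 in shRNA 1 livers against 0.03, 0.0016 and 0.07 in shRNA 2 livers and -0.10 to 0.11 in controls. In shRNA 1 against control 12 of the 15 had a higher mean and 3 a lower one, with a median difference of 0.36 and 0 adjusted calls. The mean of 14 CAR and PXR targets was -0.22 to 0.39 in controls and 0.64 to 0.76 in shRNA 1 livers. The shRNA 2 livers were at 0.21, 0.19 and 0.69, the last of them within the range of the shRNA 1 livers. Of the 14 CAR and PXR targets, 12 had a higher mean in shRNA 1 livers (median difference 0.37, 0 adjusted calls). One of the 14, Cyp2b9, is also in the list of female-biased genes used below, so the means of those lists are not separate. Its shRNA 1 minus control difference was 4.23, far above the median of the list. The NRF2 list and the CAR and PXR list have been seen to differ in these arrays before and are no independent support. Their part in the Abcc3 values was not tested.

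The other basolateral exporters had intervals that included 0 in each comparison with control. Abcc4, an exporter of cyclic nucleotides and bile salts and also a known NRF2 target, was at 5.41, 5.21, 5.02 and 4.97 in controls. It was at 5.26, 5.28 and 5.40 in shRNA 1 and 5.32, 5.30 and 5.36 in shRNA 2 livers, within the range of the controls. Its adapted minus control difference was 0.17 (interval -0.03 to 0.38, limma adjusted p = 0.653), or 0.11 without control replicate 4 and 0.26 without control replicate 1. Abcc6, whose loss causes ectopic mineralization, lay at 8.36 to 8.64 in controls, 8.33 to 8.42 in shRNA 1 livers and 7.96 to 8.53 in shRNA 2 livers (difference -0.17, interval -0.41 to 0.06, and -0.09 without shRNA 2 replicate 2). Abcc1, Abcc5 and Abcc10 completed the group with differences of -0.14, -0.08 and 0.03. Over the 6 members, 3 means were higher and 3 lower, with a median difference of -0.03.

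Intracellular members were measured by 4 genes, and none reached an unadjusted p under 0.05 against control. Abcb10, an exporter of the mitochondrial inner membrane with a role in heme synthesis, was at 7.85, 7.86, 7.77 and 7.30 in controls, at 7.17, 7.43 and 7.60 in shRNA 1 livers and at 7.76, 7.71 and 7.27 in shRNA 2 livers. The groups overlapped, and control replicate 4 stood below the other controls. Adapted minus control was -0.21 (interval -0.52 to 0.10) with -0.34 without control replicate 4 and -0.13 without shRNA 2 replicate 3. Abcb6, a porphyrin transporter, had a difference of 0.11, Abcb8 of the mitochondrial inner membrane 0.08 and the lysosomal peptide transporter Abcb9 0.03. The interval of Abcb8 was -0.09 to 0.25. Over the 4 genes, 3 means were higher and 1 lower, with a median difference of 0.05.

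Slco1a4, a sinusoidal uptake carrier of broad specificity, had the widest spread of the 24 members. Its SD within groups was 0.62, where the median of all tested genes was 0.16. With Abcb1a (0.52) and Abcg2 (0.36) it was one of 3 members above the 95th percentile of all genes, an SD of 0.33. Its values were 8.46, 8.59, 8.70 and 9.16 in controls, 9.66, 9.54 and 9.23 in shRNA 1 livers and 8.05, 9.16 and 10.20 in shRNA 2 livers. All shRNA 1 livers were above all controls, and the shRNA 2 livers held both the lowest and the highest array. The shRNA 1 minus control difference was 0.75 (interval -0.07 to 1.56, limma adjusted p = 0.668). The shRNA 2 difference was 0.41 (interval -0.40 to 1.23), -0.12 without replicate 3 of that group and 0.95 without its replicate 1.

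The arrays in which Slco1a4 was highest were also among those highest in female-biased liver genes. The mean of 9 female-biased genes, none of them a member and 2 of them (Abcd2 and Slc22a26) transporters of other families, was 2.16 in shRNA 2 replicate 3, which was also highest for Slco1a4 and Abcb1a, and 1.05 to 1.31 in shRNA 1 livers. It was 1.01 in control replicate 4, the control with the highest Slco1a4, and -0.51 to -0.17 in the other controls. In shRNA 2 replicates 1 and 2 it was 0.43 and 0.64, although replicate 1 was lowest of all arrays for Slco1a4, and the control highest for Abcb1a, replicate 1, had a mean of -0.33. Of the 9 genes, 8 had a higher mean in adapted livers, with a median difference of 0.71 and 0 adjusted calls. The male-biased neighbour Slco1a1 lay at 11.41 to 11.48 in controls and 11.13 to 11.65 in adapted livers, with its lowest value in shRNA 2 replicate 3. How far sex-biased expression accounts for the transporter values was not tested.

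The other tested uptake carriers gave one low value and otherwise small differences. Slco2a1, the prostaglandin transporter, which is strongly expressed in endothelium, was at 9.87, 9.81, 9.97 and 9.79 in controls, at 9.34, 9.82 and 9.32 in shRNA 1 livers and at 9.79, 9.78 and 9.73 in shRNA 2 livers. Replicates 1 and 3 of shRNA 1 were far below the other 8 arrays, and replicate 2 lay within the controls. The shRNA 1 minus control difference was -0.37 (standard error 0.12, interval -0.63 to -0.11, limma adjusted p = 0.464) and that of shRNA 2 -0.10 (interval -0.36 to 0.17). Fewer cells of a type and less RNA per cell cannot be told apart in whole liver. Over the 6 endothelial markers the mean was 0.07 to 0.17 in shRNA 1 livers, 0.01 to 0.11 in shRNA 2 livers and -0.06 to 0.09 in controls, with 4 of 6 means higher in shRNA 1 livers and 2 lower, those of Stab2 at -0.04 and Lyve1 at -0.02. Their part in the Slco2a1 values was not tested.

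Slco1b2, the principal hepatic carrier for bilirubin and many drugs, lay at 11.69 to 11.95 in controls, 11.79 to 11.89 in shRNA 1 and 11.69 to 11.89 in shRNA 2 livers (adapted difference -0.04, interval -0.22 to 0.14). Slco2b1, a carrier of steroid sulfates, lay at 9.22 to 9.28 in 3 controls and 8.82 in control replicate 4, and at 9.01 to 9.31 in adapted livers (difference 0.0022, interval -0.22 to 0.22). A further Slco2b1 cluster, at 3.29 to 3.60 on all arrays, was not used. Slco3a1 had a difference of 0.03.

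**Figure D3:**
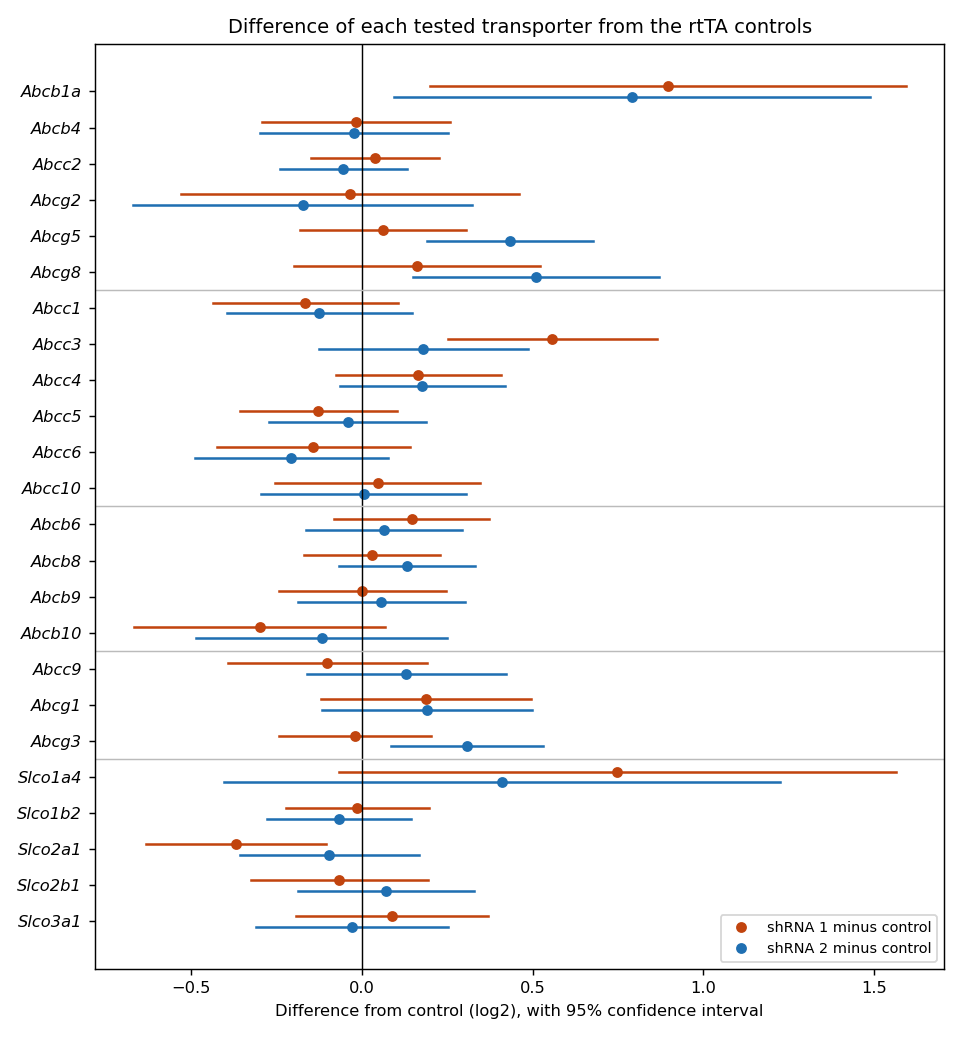
Difference from the 4 controls on the log2 scale (dots) with 95% confidence interval (lines) for the 24 tested transporters, in shRNA 1 and shRNA 2 livers; grey lines part canalicular, basolateral, intracellular, other ABC and OATP members. Most intervals include 0; those of Abcb1a are the only ones that lie above 0 in both lines, and none passed after adjustment over all genes.

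Of the other ABC members, Abcg3 stood out in shRNA 2 livers. It was at 5.19, 4.99, 4.82 and 5.11 in controls, 4.995 to 5.02 in shRNA 1 livers and 5.23, 5.44 and 5.32 in shRNA 2 livers. All shRNA 2 livers lay above all other arrays. The shRNA 2 minus control difference was 0.31 (interval 0.08 to 0.53, limma adjusted p = 0.620), and shRNA 1 minus shRNA 2 was -0.33 (limma adjusted p = 0.699). Abcc9, a subunit of ATP-sensitive potassium channels, was at 7.95 to 8.20 in controls and at 8.07, 8.01 and 8.55 in shRNA 2 livers, with 7.85 to 8.11 in shRNA 1 livers (adapted difference 0.01). The sterol exporter Abcg1 had differences of 0.19 in shRNA 1 and 0.19 in shRNA 2 livers, with intervals that included 0 in both.

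Groups did not overlap for few members. In shRNA 1 livers Abcb1a, Abcc3 and Slco1a4 were above all controls, 3 of 24 members, against 5.07% of all genes, and 0 were below, against 3.82% (8.9% in either direction). In shRNA 2 livers Abcg3, Abcg5 and Abcg8 were above all controls, 3 of 24 against 3.88%, and Slco2a1 was below, 1 of 24 against 3.41% (7.29% in either direction). For Slco2a1 the separation was narrow, with 9.786 in the highest shRNA 2 liver and 9.789 in the lowest control. Between the hairpins Abcc3 was higher in every shRNA 1 liver, 1 of 24 against 5.94%, and Abcg3 and Abcg5 were higher in every shRNA 2 liver, 2 of 24 against 5.36% (11.3% in either direction). The separation of Abcc3 was narrow too, with 9.309 in the lowest shRNA 1 liver and 9.298 in the highest shRNA 2 liver. With all 6 adapted livers together 0 of 24 did not overlap the controls, against 1.88% of all genes (1.04% above and 0.842% below). The comparisons of each line with control share the same 4 controls, and the direct tests between the lines did not pass for any member.

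**Figure D4:**
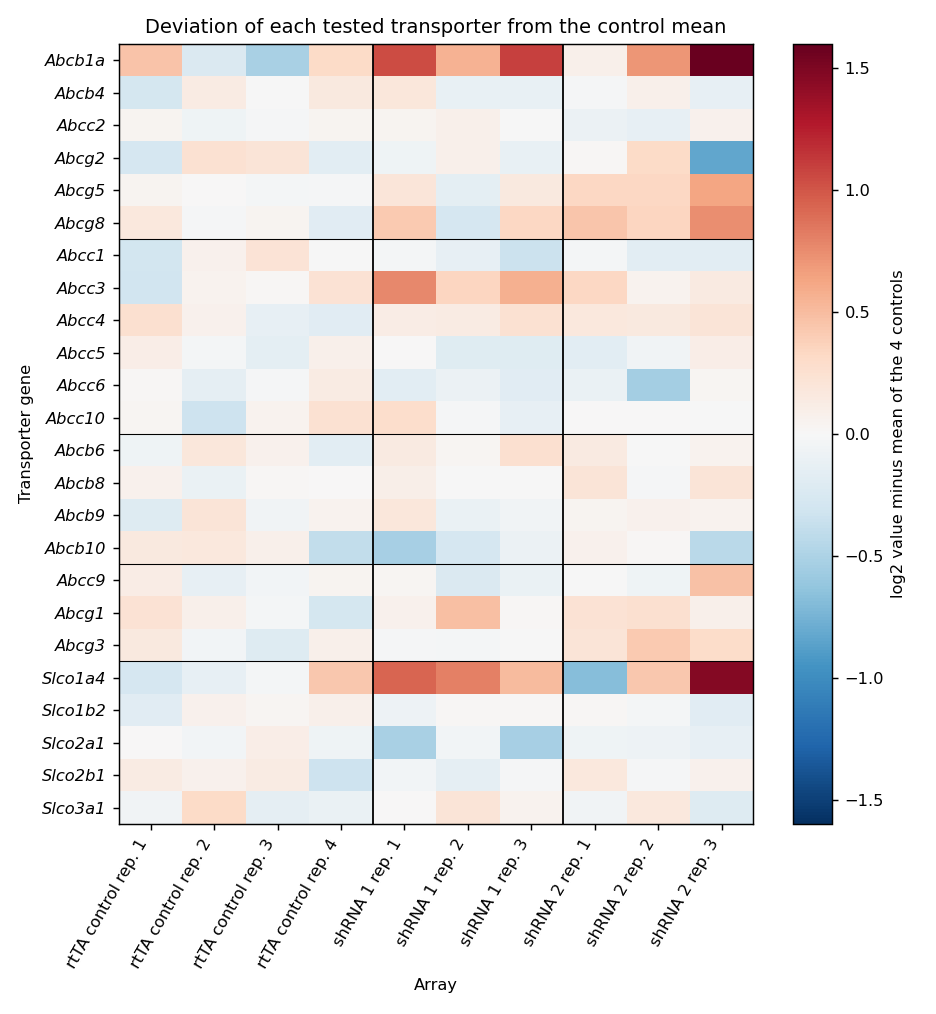
Log2 value of each tested transporter minus its mean over the 4 controls (colour), for 10 arrays (columns) and 24 members (rows), parted by group and role. The largest deviations are those of Abcb1a and Slco1a4 in shRNA 2 replicate 3; Abcg2 is lowest in that array, and Abcc3 is highest in the shRNA 1 livers.

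The 14 members below the level filter had values between 2.27 and 4.21 on all arrays. They include the Slco4 to Slco6 genes, the islet sulfonylurea receptor gene Abcc8, the brain carrier gene Slco1c1, Slco1a5, Slco1a6, Abcb5, Abcc12, Abcg4 and Abcb1b. Many are known from other tissues, so the set is wider than transporters of the liver. Tested without the filter in limma, 0 of the 14 passed after adjustment, and in adapted against control 2 of 14, Abcb1b and Slco1a5, reached an unadjusted p under 0.05, where 7.11% of all 22180 genes did. Slco1a5, named because it was so counted, had a difference of -0.29 (limma adjusted p = 0.632).

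Transporters and regulators outside the set also gave 0 adjusted calls. Of 17 other hepatic transporters tested, 10 had a higher and 7 a lower mean in adapted livers, with a median difference of 0.12 that was 0.05 without control replicate 4. The glucose carrier gene Slc2a2 was at 0.36 (limma adjusted p = 0.297), the bile salt carrier gene Slc10a2 at 0.51 (limma adjusted p = 0.465) and the phosphate and urate carrier gene Slc17a1 at -0.25 (limma adjusted p = 0.542). Of 18 regulators, 8 had a higher and 10 a lower mean, with a median of -0.06. Nfe2l2, the gene of NRF2, was at 0.21 (limma adjusted p = 0.569), the hepatocyte factor gene Hnf4a at -0.18 (limma adjusted p = 0.583) and Bcl6, a repressor in growth hormone signalling, at -0.89 (limma adjusted p = 0.684).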

How the data were processed

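RNA from 25 mg of each liver was measured on 10 whole-transcript Affymetrix mouse arrays. The authors deposited log2 values per transcript cluster, made with Affymetrix Expression Console per the submitters' processing notes; the software version and the normalization and build it used are not stated there, so their effect is carried into the results. That the scale is log2 follows from the range, 1.40 to 13.8. Of 41345 clusters 23521 had 1 gene symbol, and 23328 of these matched RefSeq by Entrez identifier. The highest-mean cluster of each of 22180 genes was kept, and 13308 genes above the 40th percentile were fitted. Groups came from the sample titles. One limma fit (version 3.58.1, R 4.3.3) over the 10 arrays, checked on simulated data, gave all comparisons, two-sided, with Benjamini-Hochberg adjustment and a threshold of 0.05. Confidence intervals are 95% and unadjusted. Exact permutation tests ran over the 210 splits of 6 against 4 arrays.

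Members and lists were chosen with earlier results of these data known. Named members were 13 fixed genes and the 6 with the smallest p in each comparison, 17 in all; others are named to complete a group. The Abcg5 and Abcg8 relation and the motifs were added after seeing the data. Motifs were searched in the RefSeq windows of GRCm38.p6 (32851 windows); array coordinates are not given. Figures used Python 3.11.15 and matplotlib 3.10.9. The number of arrays limits the precision: the median standard error of a member was 0.11 for adapted against control. Alternatives were other normalizations, level filters, cluster summaries, weights, priors and sample sets.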

Additional observations from a re-analysis of the deposited data

Results flagged for a closer look

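Among 34 groups examined (17 named members in the 4 controls and in the 6 adapted livers), 5 held an array whose gap to the nearest other array was too large a share of the group's range by Dixon's criterion; chance gives about 1 in 20. Abcb10 in control replicate 4 was at 7.30, with the nearest control at 7.77. Slco2b1 in the same array was at 8.82, with the nearest control at 9.22. Among adapted livers, Abcc6 in shRNA 2 replicate 2 was at 7.96, with the nearest at 8.33. In shRNA 2 replicate 3, Abcc9 was at 8.55, with the nearest at 8.11, and Abcg2 at 7.35, with the nearest at 8.07. Without shRNA 2 replicate 3 the shRNA 1 minus shRNA 2 difference of Abcc9 was -0.06 in place of -0.23. Without shRNA 2 replicate 2 the shRNA 2 minus control difference of Abcc6 was -0.04 in place of -0.21.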

How the results depend on the processing

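The count of members past the adjusted threshold was 0 in each of the 5 comparisons under every alternative run, and no named member was called under any of them. The count at an unadjusted p under 0.05 in adapted against control ranged from 2 to 7. The 7 was reached without the level filter, where the 14 members below it were tested as well and 7.11% of all genes reached that level. For the other alternatives the share of all genes is not given, so their counts cannot be set against it. The median difference of the members is small and moved. It was 0.028 for adapted against control, and 0.059 with median centring, which raised the median of all genes to 0.04; leaving out 1 array gave -0.0064 to 0.045. It was 0.015 for shRNA 1, with -0.012 to 0.044 when 1 array was left out. It was 0.061 for shRNA 2, 0.097 with median centring and 0.026 to 0.090 when 1 array was left out. Between the hairpins it was -0.0072, with 0.024 under a filter at the 60th percentile, -0.071 to 0.017 when 1 array was left out, and -0.053 without control replicate 4 and shRNA 2 replicate 3, an alternative chosen after seeing the data. With median centring 17 members in place of 15 had a higher mean in adapted livers. The share of all tested genes with a higher mean rose as well, to 61.9% from 52.0%. The cause of these shifts was not tested. With the replicate number as a block 0 members were called, and the number at an unadjusted p under 0.05 was 4 in place of 5 for adapted, 5 in place of 3 for shRNA 1, 4 in both fits for shRNA 2, 4 in place of 3 between the hairpins and 6 in both fits of the F test. Only control replicate 4 bears the number 4, so it did not enter the differences of the block fit. The median difference for adapted against control was 0.039 both in that fit and without control replicate 4. Nothing in the labels ties the numbers across groups. Deviations of the 9 same-numbered pairs correlated at -0.25 to 0.27, and those of the 24 other pairs between groups at -0.28 to 0.27. Of the 9 arrays with a same-numbered partner, 5 correlated best with one.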

Other observations

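ABC genes of the A, D, E and F families, which lie outside the set above, also gave 0 calls after adjustment in limma. Of 16 tested, 9 had a higher and 7 a lower mean in adapted livers, with a median difference of 0.0054. The peroxisomal fatty acid transporter gene Abcd2, which is also female-biased in liver, was at 0.82 (limma adjusted p = 0.481). Abcf3, whose product has no membrane domain, was at -0.21 (limma adjusted p = 0.500) and Abca5 at 0.24 (limma adjusted p = 0.560).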
